A study of Homo sapiens with 6 samples.

Results

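Transcription factor genes that are known mainly from embryonic patterning and from lymphocytes other than B cells were examined in Mec-1 cells, a human line established from a chronic B cell leukaemia. The set comprised 10 genes: the homeobox genes PITX1 and LHX2, the homeobox genes HOXB2, HOXB3, HOXB4 and HOXB7 of the HOXB cluster, the T-box genes EOMES, TBXT and TBX21, and the basic helix-loop-helix gene BHLHE22. All probes annotated to these symbols were taken, which gave 12 probes for 10 of the 20046 genes named on the array. EOMES, TBX21, PITX1, LHX2, BHLHE22 and the rest were chosen with their levels and detection calls on these 6 arrays in view, so their differences between groups are given as a description, with no p-value, and their calls in the fit over all genes are only counted.

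Homeobox proteins bind DNA through a homeodomain, which recognises short motifs built on a TAAT core, and T-box proteins bind through a larger domain that recognises TCACAC-type sites. HOX genes lie in clusters in which the order of the genes follows the order of their use along the body axis, and they are kept silent by Polycomb complexes and active by MLL complexes. HOXB genes are also active in blood stem and progenitor cells, whereas T-bet, the product of TBX21, and EOMES direct cytotoxic and type 1 programmes in T cells and natural killer cells. T-bet is also found in subsets of B cells.

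The study compared 3 arrays of Mec-1 cells carrying a scrambled, non-effective shRNA cassette (TR30013), called the control, with 3 arrays of a Mec-1 variant made with an shRNA against SLAMF1 in the pGFP-V-RS vector (TG309422). SLAMF1 encodes the surface receptor CD150, which these cells carry constitutively, and all cells were grown in vitro in complete medium. The 3 arrays per condition are described as biological replicates, with no word on whether the variant was 1 clone or a pool, so the spread between arrays may be that of cultures of a single line. All 6 arrays lay on 1 chip with the controls in the first 3 positions, and thus the effects of position and of group cannot be told apart.

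Between 36.3% and 41.4% of probes were detected per array, that is, had a detection p-value under 0.05 against the array's negative controls. Replicate 2 of the libraries labelled SLAMF1 shRNA stood apart: it correlated at 0.928 and 0.942 with the other 2 arrays of its label, which correlated at 0.994 with each other, across tested genes. Replicate 2 of that label also had the lowest mean signal, 208 against 231 to 294 on the other arrays, and the lowest share of probes detected (36.3%). The knockdown target was not lower with the SLAMF1 shRNA label. SLAMF1 read 8.22 ± 0.19 (log2, SD, n = 3) with the control label and 8.60 ± 0.13 (SD, n = 3) with the other (limma, adjusted p = 0.153). It passed as higher in 1 of 15 alternatives, that without replicate 2 of the SLAMF1 label (limma, adjusted p = 0.0489). Its difference ran from 0.10 to 0.46 over the alternatives, with a limma adjusted p of up to 0.831. All directions below are therefore those of the labels. The B cell genes CD79A, CD79B, CD22, CD74, BLNK, EBF1 and MS4A1 were detected on all 6 arrays, and the PAX5 probe on 1 array.

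PITX1, LHX2 and BHLHE22 were bright on every array labelled control and near the limit of detection on every array labelled SLAMF1 shRNA. EOMES, TBXT and HOXB2 were lower as well, whereas the values of TBX21, HOXB3, HOXB4 and HOXB7 overlapped between the groups. Levels are log2 values after background correction and normalization, with an offset of 16 added, which understates differences of dim probes, and levels of different probes cannot be set against each other. The size of the differences rests on the background correction: without it, that of PITX1 was -3.09 in place of -5.35, that of LHX2 -3.14, that of BHLHE22 -2.78, that of EOMES -1.72, that of TBXT -1.52 and that of HOXB2 -1.23. In RNA of whole cultures, fewer cells expressing a gene and less RNA per cell cannot be told apart.

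PITX1, a paired-type homeobox gene that specifies the hindlimb and the pituitary, read 9.45, 9.69 and 9.60 in control replicates 1 to 3. In the libraries labelled SLAMF1 shRNA it read 4.24, 4.22 and 4.23, and its probe was detected on none of those arrays. The means were 9.58 ± 0.12 and 4.23 ± 0.01 (SD, n = 3 each), which makes PITX1 at least 33.6-fold lower. That bound takes, on each dim array, the higher of the probe's own signal and the lowest signal among detected probes.

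LHX2, a LIM homeobox gene of forebrain, eye and hair follicle development, read 9.88, 9.83 and 9.56 in the controls. It read 4.44, 4.66 and 4.57 in the libraries labelled SLAMF1 shRNA, where it was detected on 2 of 3 arrays. The log2 difference of LHX2 was -5.20 (SE 0.12), and the groups were separated by a wide gap. BHLHE22, which encodes a repressor of the OLIG family that acts in developing cortex and retina, followed the same course. It read 9.58, 9.04 and 9.44 against 4.68, 4.40 and 4.58, a log2 difference of -4.80 (SE 0.18), with detection on 2 of the 3 arrays labelled SLAMF1 shRNA.

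Among the T-box genes, EOMES read 7.58, 8.61 and 8.39 in the controls and 4.56, 5.59 and 4.53 in the libraries labelled SLAMF1 shRNA. The groups did not overlap, but EOMES was the most variable member, with an SD of 0.54 in the controls and 0.60 in the other group. Replicate 2 was the highest array of each label. The log2 difference of EOMES was -3.30 (SE 0.47), and -3.65 when SLAMF1-label replicate 2 was omitted.

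TBXT, which encodes brachyury, the factor of nascent mesoderm and notochord, was measured by 2 probes. The brighter probe read 8.57, 8.02 and 8.22 in the controls and 5.82, 5.57 and 5.72 in the libraries labelled SLAMF1 shRNA, and it was detected on all 6 arrays. Brachyury transcript was thus lower, by a log2 difference of -2.56 (SE 0.17), while still above background. The second probe, annotated to the same RefSeq transcript, read 5.85, 5.66 and 5.59 against 4.37, 4.34 and 4.56, a log2 difference of -1.28 (SE 0.10). Both TBXT probes separated the groups.

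TBX21 did not share this pattern. It was dim, at 5.39, 5.58 and 5.29 in the controls and 5.20, 5.76 and 5.53 in the libraries labelled SLAMF1 shRNA, with detection on all 6 arrays. The groups overlapped, and the log2 difference was 0.08 (SE 0.19), or -0.055 without replicate 2 of the libraries with the SLAMF1 label. It was -0.13 with median centring, a scaling that moved the median difference of all tested genes from 0.02 to -0.14.

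**Figure D1:**
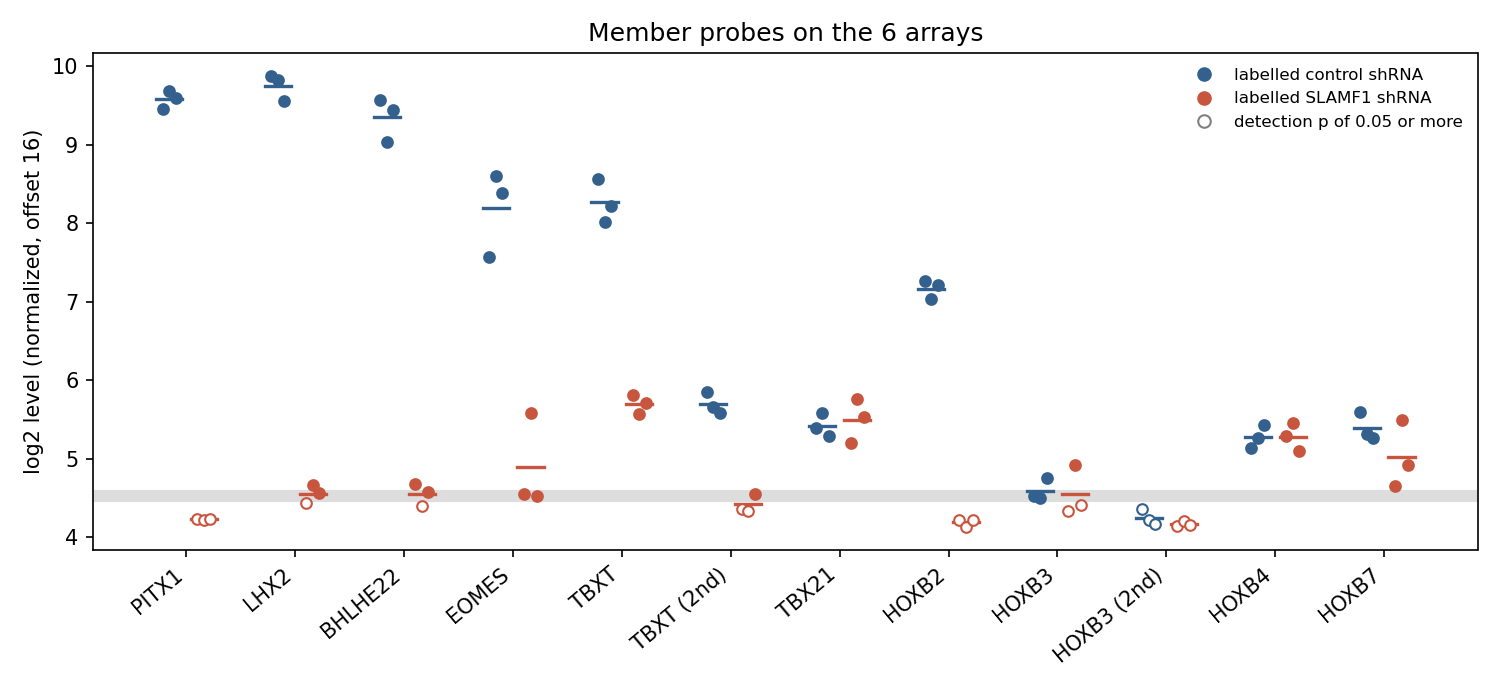
Log2 level of each of the 12 member probes (x axis, second probes of a gene marked) on the 6 arrays; points are arrays, bars are means of 3, open points have a detection p-value of 0.05 or more, and the grey band spans the lowest detected signal of each array (4.46 to 4.59). PITX1, LHX2, BHLHE22, EOMES, TBXT and HOXB2 lie higher on all 3 control arrays than on any array labelled SLAMF1 shRNA, and the groups overlap for TBX21, HOXB3, HOXB4 and HOXB7.

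The HOXB genes differed among themselves. HOXB2, which patterns the hindbrain and is active in blood progenitors, read 7.26, 7.03 and 7.21 in the controls. In the libraries labelled SLAMF1 shRNA it read 4.22, 4.13 and 4.22 and was detected on no array. That makes HOXB2 at least 6.32-fold lower on background-corrected levels, while its log2 difference was -1.23 without that correction. HOXB4, known for expanding blood stem cells when overexpressed, read 5.14, 5.27 and 5.43 against 5.29, 5.46 and 5.10. It was detected on all 6 arrays, the groups overlapped, and the log2 difference was 0.00 (SE 0.13).

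HOXB7, an axial patterning gene that is overexpressed in several tumour types, read 5.60, 5.32 and 5.27 in the controls. Its values in the libraries labelled SLAMF1 shRNA were 4.65, 5.49 and 4.93, and the groups overlapped only through replicate 2. The deposited signals did not overlap, at 132, 107 and 108 in the controls against 94.3, 97.5 and 99.5. Normalization placed replicate 2, the array of lowest mean signal, highest of its label. HOXB4 and TBX21 also had their highest normalized but lowest deposited value of that label on this array. The log2 difference of HOXB7 was -0.37 (SE 0.27), and -0.61 without that array. HOXB3 was near the limit of detection. Its brighter probe, which is not annotated to a RefSeq transcript, read 4.53, 4.50 and 4.75 against 4.34, 4.92 and 4.42. It was detected on all 3 control arrays and on 1 of the others. The second HOXB3 probe, which is annotated to a RefSeq transcript, was detected on no array. The difference of the brighter probe was -0.04 (SE 0.20), and it changed sign with single arrays left out.

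Along the HOXB cluster, then, HOXB2 stood alone. Its neighbour HOXB1 was detected on 1 control array, and the HOXB5 and HOXB6 probes hovered at the limit. HOXB5 read 4.58 ± 0.14 (SD, n = 3) in the controls and 4.62 ± 0.21 (SD, n = 3) in the libraries labelled SLAMF1 shRNA, and HOXB6 read 4.59 ± 0.14 against 4.45 ± 0.18. Neither passed the test (limma, adjusted p = 0.898 and 0.594). HOXB8, HOXB9 and HOXB13 were detected on no array, nor was the probe of MIR10A, the microRNA gene next to HOXB4.

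In the other clusters few HOX genes were detected. Of 9 HOXC genes, 3 were detected on all control arrays, namely HOXC4, HOXC6 and HOXC13, and 6 on none of the 6 arrays. A second HOXC4 probe, annotated to the same RefSeq transcript as the detected one, was detected on no array. HOXC6 read 5.40, 5.29 and 4.72 in the controls and 4.35, 4.37 and 4.64 in the libraries labelled SLAMF1 shRNA, a log2 difference of -0.68 (SE 0.22). It missed the threshold (limma, adjusted p = 0.0575) and passed it with SLAMF1-label replicate 2 left out (0.0317), with control replicate 3 left out (0.0395) and with trend and robust variance (0.0393). These values are of its brightest probe. A second HOXC6 probe, annotated to the same RefSeq transcript, gave a log2 difference of -0.08 with overlapping groups, and the remaining HOXC6 probes were detected on no array. None of the 9 HOXD genes was detected on all 3 arrays of either label, and 7 were detected on no array. Of the HOXA genes, HOXA2 was measured and was detected on 1 array, and the others were not analysed here.

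**Figure D2:**
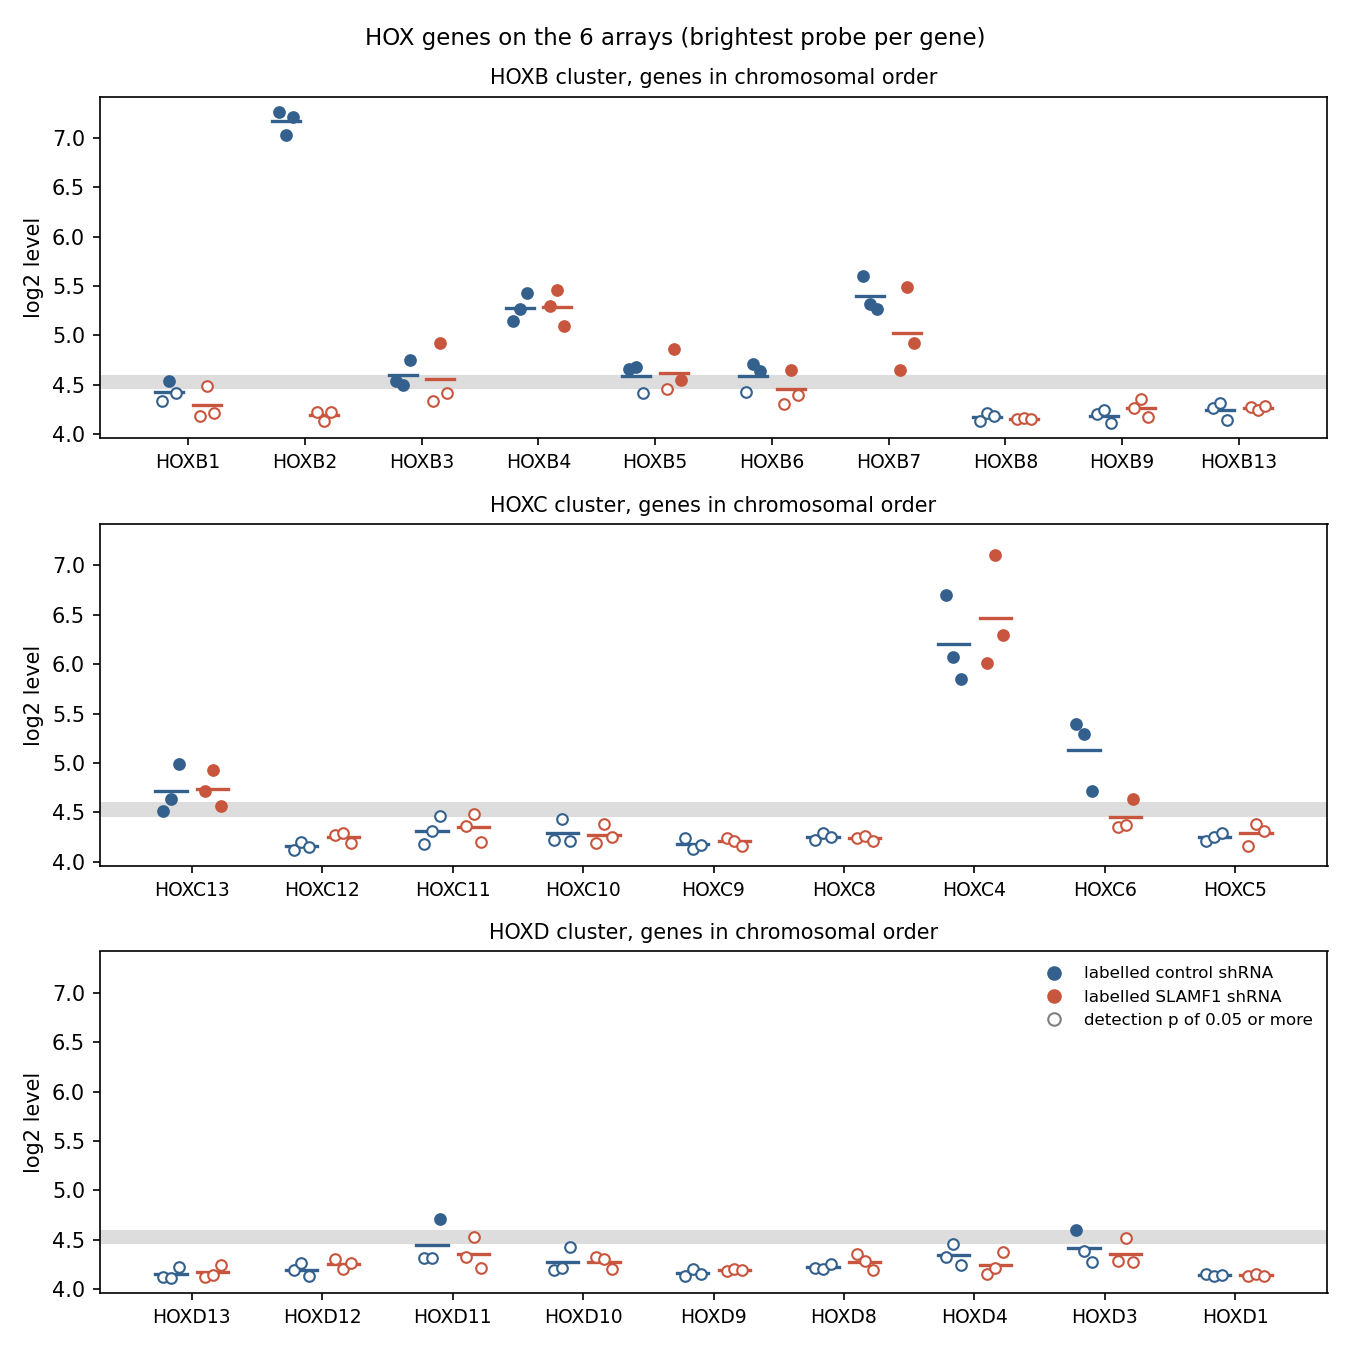
Log2 level (y axis) of the brightest probe of each HOX gene on the 6 arrays, with genes of the HOXB, HOXC and HOXD clusters in chromosomal order; symbols as in the plot of member probes. HOXB2 is the only gene of its cluster with a gap between the groups, from 7.03 down to 4.22, and the HOXD genes lie at or below the grey band of lowest detected signals on nearly all arrays.

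All 10 members had a probe that passed the filter of detection on at least 3 of 6 arrays. PITX1 and HOXB2 passed it through the control arrays alone, so members that passed had to differ in those cases. Across all 10832 genes tested, 24.6% were called at an adjusted p under 0.05, 11.7% as lower and 12.9% as higher, and the members gave 6 lower calls and 0 higher ones. The control arrays lay wholly above the others for those same 6 members, against 22% of tested genes, and 2 members were detected on all 3 control arrays and on none of the others, against 2.44% of tested genes. The opposite detection pattern, found for 1.81% of tested genes, was seen for 0 members. A log2 difference of -3 or lower was seen for 4 members and 0.332% of tested genes. Since the members were chosen on this contrast, these shares carry no weight as evidence. The median difference of the 10 members was -2.77, beside 0.02 over all tested genes.

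The start regions of the lower members are shown because these genes share their direction but not their chromosome. RefSeq promoter sequences (GRCh38.p14, 250 bases before to 50 after the start) were matched for 5 members, PITX1, LHX2, EOMES, TBXT and TBX21, and those of PITX1 (minus strand, chr5:135034179-135034478), LHX2 (plus strand, chr9:124011518-124011817), EOMES (minus strand, chr3:27722274-27722573) and TBXT (minus strand, chr6:166168606-166168905) are printed 5′ to 3′, with every motif searched for in capitals.
PITX1: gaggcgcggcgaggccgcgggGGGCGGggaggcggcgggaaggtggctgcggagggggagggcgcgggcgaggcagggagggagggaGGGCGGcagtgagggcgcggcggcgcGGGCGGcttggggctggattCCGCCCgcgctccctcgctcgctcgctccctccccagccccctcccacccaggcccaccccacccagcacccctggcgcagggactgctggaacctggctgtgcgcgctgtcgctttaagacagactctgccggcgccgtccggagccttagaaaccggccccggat
LHX2: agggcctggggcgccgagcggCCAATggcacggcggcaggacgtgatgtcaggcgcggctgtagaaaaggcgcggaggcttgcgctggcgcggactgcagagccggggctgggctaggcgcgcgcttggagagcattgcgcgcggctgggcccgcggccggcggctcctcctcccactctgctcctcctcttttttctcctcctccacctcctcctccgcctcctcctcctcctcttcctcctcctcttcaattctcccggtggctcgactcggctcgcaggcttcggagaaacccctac
EOMES: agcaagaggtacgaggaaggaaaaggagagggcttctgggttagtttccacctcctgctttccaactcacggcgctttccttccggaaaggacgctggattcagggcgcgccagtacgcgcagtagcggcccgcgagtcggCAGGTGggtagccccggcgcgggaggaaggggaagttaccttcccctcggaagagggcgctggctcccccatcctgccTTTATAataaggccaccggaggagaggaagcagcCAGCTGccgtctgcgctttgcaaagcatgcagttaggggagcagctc
TBXT: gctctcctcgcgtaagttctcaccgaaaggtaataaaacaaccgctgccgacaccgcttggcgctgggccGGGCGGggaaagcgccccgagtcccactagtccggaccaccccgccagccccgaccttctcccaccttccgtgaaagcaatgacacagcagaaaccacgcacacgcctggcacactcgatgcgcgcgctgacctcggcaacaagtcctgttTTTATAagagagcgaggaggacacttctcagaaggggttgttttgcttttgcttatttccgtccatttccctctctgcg

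Motifs were searched on both strands. For homeodomain proteins they were TAATCC of the bicoid type, which 6.36% of all 35114 promoters of this length held, the LIM and HOX motif TAATTA, held by 4.84%, and the joint PBX and HOX site TGATTGAT, held by 0.484%. The T-box motif TCACAC was held by 12% of promoters. None of these was found in the 4 windows. The other motifs were the E-box CANNTG of helix-loop-helix factors, the TATA box TATAAA, the CCAAT box, and the GC box GGGCGG. TBXT had a second annotated start (minus strand, chr6:166167802-166168101), whose window is not printed and held 2 CCAAT boxes, 2 GC boxes, 1 E-box, no TATA box and 22 CpG dinucleotides; the values that follow are for its printed window. EOMES and TBXT held a TATA box on the reverse strand in these letters (TTTATA), at offsets of -31 and -29 bases from the start, a motif of 11.5% of promoters. PITX1 held 4 GC boxes, a motif of 45% of promoters, and TBXT 1. LHX2 held 1 CCAAT box (34.6% of promoters), and EOMES held 2 E-boxes (68.7%). PITX1 and LHX2 were rich in CpG, with 35 and 30 CpG dinucleotides against a median of 14 over all promoters, while EOMES held 21, TBXT 25 and TBX21, whose groups overlapped, 23. No matches in these windows overlapped each other. A match is a description of the sequence and does not show that a factor binds there.

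Genes near the members on the chromosome were examined, taking by gene start the 3 nearest tested genes on each side that were not members. HOXB3 and HOXB4 were thus passed over beside HOXB2. Some neighbours lay far off: those before TBXT started at -2743 to -6065 kb from it, and TGFBR2 at 2890 kb from EOMES. Of 44 such neighbours, 4 were called higher and 6 lower, which is 22.7%, beside 24.6% of all tested genes. Around PITX1, from C5orf24 to FBXL21P, no neighbour passed the test, and their differences ran from -0.48 to 0.54. The same held around EOMES, where they ran from -0.80 to 0.54, and around BHLHE22, where they ran from -0.65 to 0.48. BHLHE22-AS1, the antisense transcript at BHLHE22, read 4.81 ± 0.07 (SD, n = 3) in the controls and was detected on none of the other 3 arrays, at least 1.23-fold lower (limma, adjusted p = 0.0691).

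Neighbours of LHX2 went both ways. DENND1A, a regulator of Rab GTPases, was lower (log2 difference -1.23, SE 0.16, limma adjusted p = 0.00141), a call lost with the mean of the gene's probes. RABGAP1, also a Rab regulator, was higher (1.05, SE 0.21), but not once control replicate 3 was left out (adjusted p = 0.0575). The uncharacterised gene LOC100129034 was higher by 1.42 (SE 0.15). Beside TBX21, ITGB3 (-1.02, SE 0.29) and OSBPL7 (0.71, SE 0.17) passed, and both calls were lost without control replicate 2 or 3. ITGB3 lost its call in 9 of 14 alternatives, the omission of control replicate 1 and no background correction among them. OSBPL7 lost its call in 4 of 15, median centring among them.

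Beside TBXT, SFT2D1, a vesicle transport gene, was lower by -1.02 (SE 0.17, limma adjusted p = 0.00409) and PRR18 by -0.71 (SE 0.17). PRR18 lost its call in 7 of 14 alternatives, such as leaving out the first control (adjusted p = 0.0636), the third control (0.0926) or the third array with the SLAMF1 label (0.0676). MPC1 on the same side gave -0.67 and did not pass.

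Outside the HOXB cluster, SKAP1, which encodes an adaptor of T cell receptor signalling, was lower by -2.53 (SE 0.27, limma adjusted p = 0.000558). It read 7.70, 7.45 and 7.23 in the controls and 4.64, 5.51 and 4.64 in the libraries labelled SLAMF1 shRNA. A second SKAP1 probe was at least 3.12-fold lower. The start of SKAP1 lay at -409 kb from that of HOXB2. LOC101927166, an uncharacterised gene that starts between them at -97.8 kb, gave -0.12 (limma, adjusted p = 0.644). SNX11, the tested gene beyond SKAP1, gave -0.02, and CALCOCO2, on the far side of the cluster, was higher (0.97, SE 0.18), a call lost with median centring. Beyond CALCOCO2, ATP5MC1, a neighbour of HOXB7, was lower (-0.81, SE 0.24), a call lost in 10 of 15 alternatives.

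**Figure D3:**
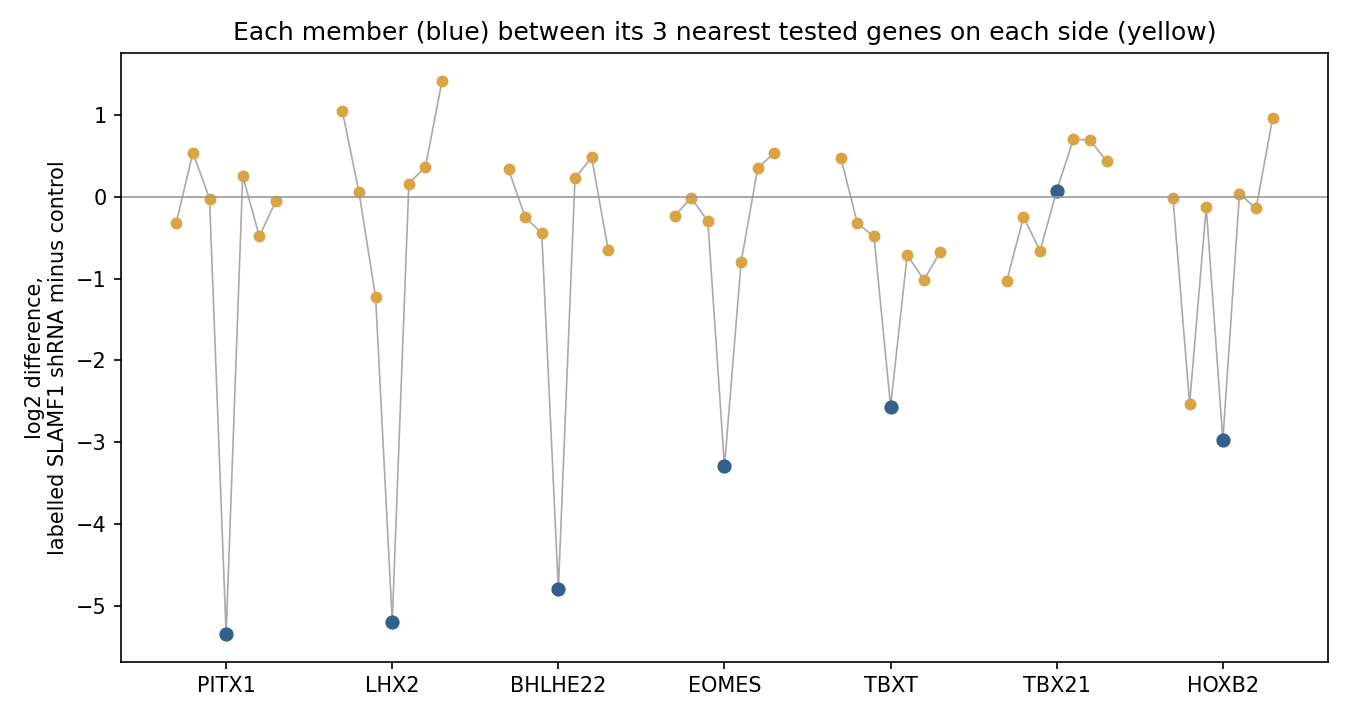
Log2 difference (y axis, libraries labelled SLAMF1 shRNA minus control) of 7 members, in blue, between their 3 nearest tested genes on each side, members left out, in yellow, from left to right in chromosomal order with spacing not to scale. PITX1 (-5.35), LHX2 (-5.20) and BHLHE22 (-4.80) lie far below their neighbours, whose differences run from -1.23 to 1.42. On 1 side of HOXB2 (-2.98) the gene SKAP1 (-2.53) is also low, but LOC101927166 (-0.12), which starts between them, is not.

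The genes with the most similar course over the 6 arrays were found by the root mean square difference of log2 levels after each gene was centred on its own mean. Among the members themselves, PITX1 and LHX2 lay 0.17 apart, and TBXT and HOXB2 0.24. Outside the members, and leaving out uncharacterised genes, VIM, the intermediate filament gene, lay closest to PITX1 (0.29) and to BHLHE22 (0.12), and the desmosomal cadherin gene DSG2 closest to LHX2 (0.28). DSG2 and SCRN1 came next for PITX1, DSG2 and PYROXD2 for BHLHE22, and PYROXD2 and VIM for LHX2. Such genes were few: apart from members, 1 gene lay within 0.3 of PITX1, 2 of LHX2, 4 of BHLHE22 and 1 of EOMES. That 1 gene for EOMES was CD52, a surface antigen of lymphocytes (0.25), followed by SDC1 (0.32) and INPP4B (0.39). All these distances were taken on background-corrected levels only, and they depend on the size of the group differences, which rests on that correction. With it VIM gave -4.94 and BHLHE22 -4.80, and without it they gave -3.64 and -2.78.

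TBXT had 42 such genes within 0.3, led by IL17RB (0.08), FUT4 (0.12) and ROBO1 (0.13). HOXB2 had 30, led by FUT7 (0.09), ESAM (0.09) and IGLL1, a surrogate light chain gene of early B cells (0.12). The members with small differences had far more genes within that distance, 3386 for TBX21, 3290 for HOXB3, 3943 for HOXB4 and 1480 for HOXB7, so the closest of them say little. They were GLT6D1, SAPCD2 and NR4A2 for TBX21, AAMP, RTN1 and BUD13 for HOXB3, ATF7IP2, RGS14 and SKA3 for HOXB4, and APOBEC3F, SPDYE2B and SNORA10 for HOXB7.

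Relatives of the members were then counted in the same fit, without the members. Of 35 other HOX genes, 25 had a probe and 5 were tested; 0 passed by limma, 1 had an unadjusted p under 0.05 and 1 passed with trend and robust variance. The median difference was 0.02. Of 41 other LIM and paired-type homeobox genes, 5 were tested and 0 passed by limma, at an unadjusted p under 0.05 as well, with a median of 0.01. ISL2, CRX, SHOX2, ALX1 and UNCX were those tested. Detection was thus rare in these families, and 22 of the 35 LIM and paired-type genes with a probe were detected on no array.

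TALE homeobox proteins bind DNA together with HOX proteins. Of 9 tested TALE genes, 1 was higher and 1 lower, with a median of 0.07. PBX4 rose (log2 difference 1.07, SE 0.20, limma adjusted p = 0.0072). MEIS2 fell by 1.39 on the log2 scale (SE 0.33, adjusted p = 0.0196), a call lost without control replicate 1, 2 or 3 (adjusted p = 0.0681, 0.072 and 0.084), with median centring (0.0557) and with no filter on dim probes (0.0655).

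Of 24 tested genes of the remaining homeobox classes, 2 were higher and 8 lower, with a median of -0.28, and 6 calls were made without control replicate 3. MEOX1, a mesoderm homeobox gene, read 6.16 ± 0.01 (SD, n = 3) in the controls. Its brightest probe was below detection on all arrays labelled SLAMF1 shRNA, at least 3.14-fold lower (limma, adjusted p = 0.000156). That probe passed the filter through the controls alone (limma, adjusted p = 0.0001175 with no filter on dim probes). The log2 difference of MEOX1 was -1.85, but -0.61 with no background correction and -1.18 with the mean of the gene's probes. TSHZ1, a zinc finger homeobox gene of trunk patterning, fell by 1.69 (SE 0.31, adjusted p = 0.00657). TSHZ1, ADNP2 and ONECUT2, all among the lower calls and the latter 2 singled out after their values were seen, lie on chromosome 18, on which differences below 0 made up 86.9% of those of 145 tested genes, against 48.4% over all chromosomes. LBX2 was at least 2.65-fold higher (adjusted p = 0.0212), a call lost in 7 of 14 alternatives, among them the omission of any 1 control replicate (adjusted p = 0.0823, 0.0725 and 0.0823). It passed the filter through the arrays labelled SLAMF1 shRNA alone, and lost its call with no filter on dim probes (limma, adjusted p = 0.0743).

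Of 4 other T-box genes tested, 1 was lower and 0 were higher by limma, with a median of -0.25. TBX15, a skeletal patterning gene, was at least 1.32-fold lower (adjusted p = 0.0124) and lost its call without control replicate 3 (0.0556). It passed the filter through the controls alone (limma, adjusted p = 0.0033 with no filter on dim probes). TBX1, TBX22 and MGA did not pass.

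Of 12 tested helix-loop-helix relatives of BHLHE22, 1 was higher and 2 lower, with a median of 0.17. LYL1, a blood stem cell factor, fell by 2.39 on the log2 scale (SE 0.21, limma adjusted p = 0.00022), and MSC, which represses E protein activity in B cells, fell by 1.59 (SE 0.16, adjusted p = 0.000393). BHLHE40 rose by 1.04 (SE 0.24, adjusted p = 0.0171), but missed the threshold when control replicate 1 (0.066), control replicate 3 (0.0551) or SLAMF1-label replicate 3 (0.0636) was omitted, and with median centring (0.103).

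Cofactors were counted too. Of 7 tested genes listed with the LIM cofactors, 2 were higher and 1 lower, with a median of -0.03. SSBP4 (1.08) and LMO2 (0.73), the latter a LIM-only protein of blood cells, were higher, and SSBP1 (-0.96) was lower. SSBP1 shares the family's name but encodes a mitochondrial DNA-binding protein. The LMO2 call was lost in 8 of 14 alternatives, no background correction and median centring among them, and the SSBP4 call in 6 of 15. No call of the list remained without control replicate 3. Of 39 tested Polycomb and MLL complex genes, 6 were higher and 2 lower, with a median of -0.18. The Polycomb genes CBX7 (1.04, SE 0.17, limma adjusted p = 0.00409) and PCGF5 (0.99, SE 0.20) were higher, and CBX2 was lower (-0.93, SE 0.22). CBX2 missed the threshold in 4 of 15 alternatives, among them those without control replicate 2 (0.081) or 3 (0.0776) and with the replicate block (0.0573), and PCGF5 also without control replicate 3 (0.0509). The 8 calls became 1 with median centring, in which CBX7 (adjusted p = 0.0573) and PCGF5 (0.137) did not pass, 2 with the replicate number as a block, and 2 to 11 with single arrays left out. The count was 3 without control replicate 1, 2 without control replicate 2 or 3, and 3 when SLAMF1-label replicate 3 was omitted.

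Genes linked to T-bet and EOMES in T cells, natural killer cells and B cells moved in both directions while TBX21 overlapped between the groups and EOMES read lower. Of 25 tested, 9 were higher and 7 lower, which is 64% called beside 24.6% of all tested genes, with a median of 0.11. The list was chosen with earlier results of these data known, so this share carries no weight as evidence. PRF1, which encodes perforin, rose by 2.67 (SE 0.23, limma adjusted p = 0.000229). The chemokine gene CCL3 fell by 2.59 (SE 0.42, adjusted p = 0.00404), and its probe may also detect near-identical copies of the gene. The cytokine gene TNF fell by 2.52 (SE 0.17, adjusted p = 7.58e-05).

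Genes known from T-bet-positive and atypical B cells were singled out after their values were seen. FCRL4 was at least 4.11-fold higher and ITGAX, which encodes CD11c, at least 2.65-fold higher, on background-corrected levels. Both were detected on no control array and on all arrays labelled SLAMF1 shRNA, so they passed the filter through that label alone. With no background correction their log2 differences were 0.84 and 0.55. A second ITGAX probe was detected on no array. FCRL5 gave 0.84 (SE 0.17) and missed the threshold when control replicate 3 was omitted (limma, adjusted p = 0.0573). It also missed it with the mean of the gene's probes, where the difference was 0.46 (limma, adjusted p = 0.0541). CXCR3, a chemokine receptor gene that T-bet activates, was lower by -1.89 (SE 0.18).

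Of 6 tested mesoderm and epithelial-mesenchymal transition genes, which are set beside TBXT, 1 was higher and 1 lower, with a median of -0.12. The epithelial cadherin gene CDH1 rose by 1.31 (SE 0.24, limma adjusted p = 0.0069, but 0.0971 with median centring). VIM fell by 4.94 (SE 0.19). Of the 34 genes with a probe, 22 were detected on no array.

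**Figure D4:**
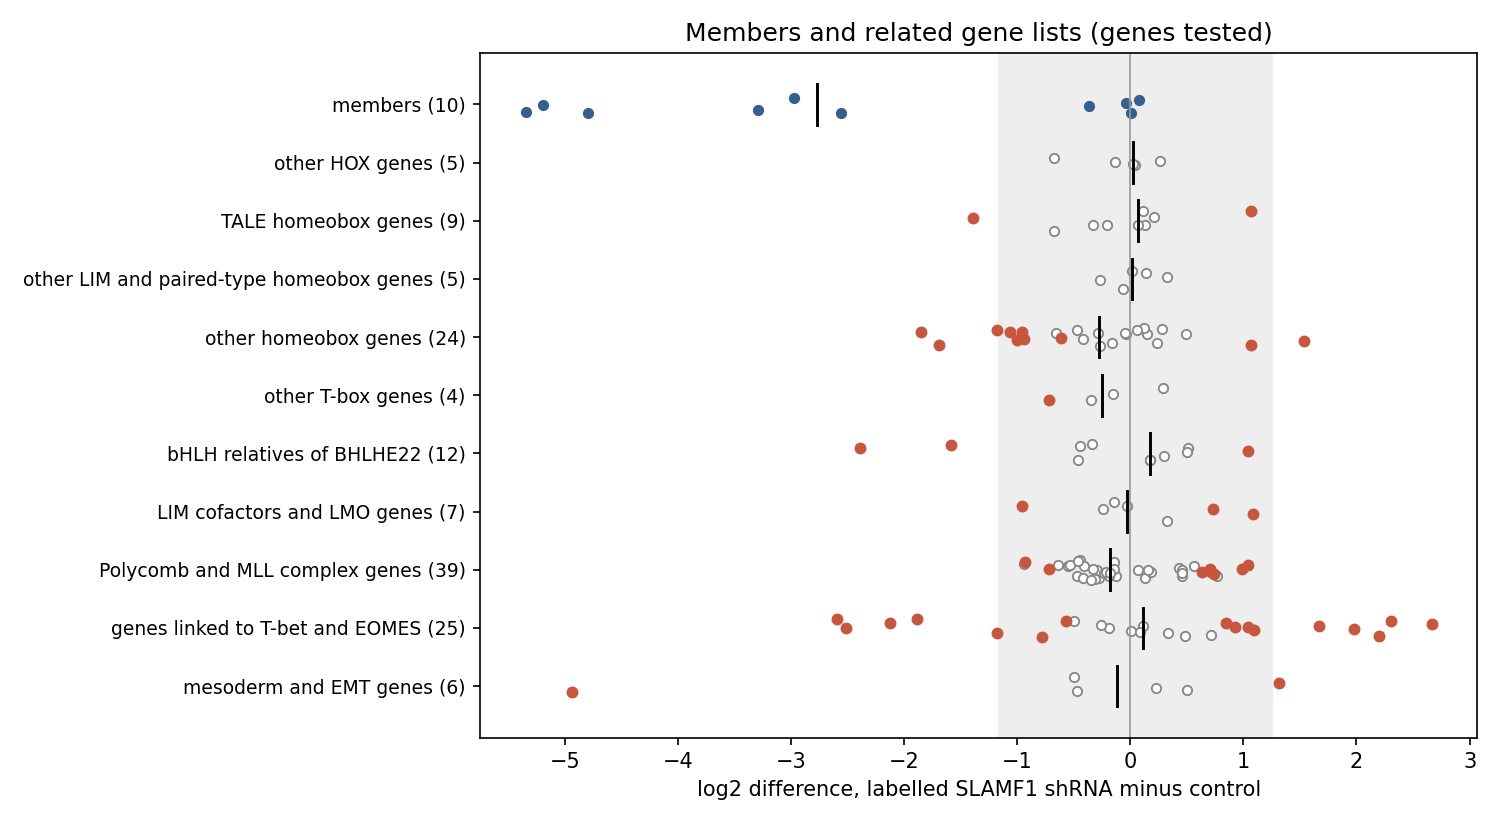
Log2 difference (x axis, libraries labelled SLAMF1 shRNA minus control) of the members (blue) and of tested genes of each related list (number in brackets); red points passed the adjusted p threshold of 0.05, open points did not, black bars are medians and the grey band holds the middle 90% of all tested genes (-1.17 to 1.25). The members' median lies at -2.77 and those of the lists between -0.28 and 0.17.

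Markers of other cell types were read on the same arrays. Summed levels are on the linear scale and count every marker with a probe, undetected ones included. An undetected probe still adds to the sum, because the offset was added to all levels. Where few markers of a list were detected, much of the sum is thus background, and its range does not measure expression. Of 9 T cell markers, 1 was detected on each control array and 1 to 3 on the others, and CD3D, CD3E, CD8A, CD8B and THEMIS were detected on no array. Of 8 natural killer cell markers, 2 to 5 and 3 to 4 were detected, with KLRD1 and NCR1 on no array, and their summed level was 193 to 222 in the controls and 225 to 454 in the libraries labelled SLAMF1 shRNA. NKG7, a granule gene on that list, was higher (1.98, SE 0.41, limma adjusted p = 0.0113), but missed the threshold when control replicate 1 (0.0502) or 3 (0.0592) was omitted, and with no background correction (0.085). Of 5 pluripotency markers, 1 to 2 were detected on control arrays and 0 to 1 on the others, with NANOG, LIN28A and DPPA4 on no array. Their summed level was 105 to 118 against 92.9 to 107. These sums came in large part from undetected probes and are not read as a fall of the list. SOX2 was at least 1.4-fold lower (limma, adjusted p = 0.0149), but missed the threshold when control replicate 2 (0.0518), control replicate 3 (0.073) or SLAMF1-label replicate 3 (0.0558) was omitted. It passed the filter through the controls alone (limma, adjusted p = 0.014 with no filter on dim probes).

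The myeloid list of 7 genes gave summed levels of 147 to 151 and 154 to 172, again with undetected markers counted, and CD163, ELANE and MPO were detected on no array. CSF1R on that list was higher (0.82, SE 0.16, limma adjusted p = 0.00881). The fibroblast and epithelial list of 8 gave 193 to 202 and 226 to 293, with COL3A1 and KRT19 on no array. On it CDH1 was higher, as given above, and EPCAM was lower (-0.60, SE 0.17, limma adjusted p = 0.0369). The EPCAM call was lost in 10 of 14 alternatives. The summed level of the 8 B cell markers measured was 4957 to 5372 in the controls and 10565 to 11773 in the libraries labelled SLAMF1 shRNA. They did not move together: of 7 tested, 5 were higher, led by CD22 (2.37, SE 0.32, limma adjusted p = 0.00179), and 1, MS4A1, named after its value was seen, was lower (-1.45, SE 0.43, adjusted p = 0.0422). The MS4A1 call was lost in 10 of 15 alternatives, the omission of control replicate 1 (0.106), 2 (0.144) or 3 (0.119) or of SLAMF1-label replicate 3 (0.0636) among them. The part of these markers in the differences of PITX1, LHX2, BHLHE22, EOMES, TBXT and HOXB2 was not tested.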

How the data were processed

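Total RNA of 6 Mec-1 samples was amplified and biotin-labelled, per the labels' protocols. The deposited values were probe signal intensities with a detection p-value each, per the file headers; the submitters' processing notes name GenomeStudio, with no version. A second deposited table of intensities, of unstated normalization, lay within 1% of quantile-normalized signals for 100% of values (median 87.9 per column), so its scale is linear and it has no background correction. Of 47323 probes, 2 had no value; 30113 had 1 symbol from the platform annotation, updated through RefSeq gene identifiers, and 17200 were unnamed.

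With R 4.3.3 and limma 3.58.1, intensities were background-corrected (nec, offset 16), log2-transformed and then quantile-normalized. Probes detected on at least 3 of 6 arrays were kept (19073), and the brightest probe per gene was tested (lmFit, eBayes, Benjamini-Hochberg over 10832 genes, threshold 0.05). Tests were run on simulated data first. The samples were grouped by their titles. The SE of a member's difference comes from the SDs of its 2 groups, and that of any other gene from limma.

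The members and lists were chosen with earlier results of these data known. Named genes were SLAMF1, the members, up to 3 called genes of each list with the largest difference, the 3 genes with the closest profile to each member, and, added later, chromosomal neighbours. The alternatives were other background, offset, scaling, filter, probe and variance settings, the second table, the replicate block and each array left out. The chip could not be a block, since there was only 1.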

Additional observations from a re-analysis of the deposited data

How the results depend on the processing

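The 6 lower members kept their direction in every alternative that tested them, but their size rests on the background correction. Without it the log2 differences were -3.09 (PITX1), -3.14 (LHX2), -2.78 (BHLHE22), -1.72 (EOMES), -1.52 (TBXT) and -1.23 (HOXB2), and with the second deposited table -3.33, -3.36, -3.0, -1.89, -1.66 and -1.39. With an offset of 50 they were -3.92, -3.96, -3.58, -2.34, -1.99 and -1.77. TBXT gave -1.92 with the mean of its 2 probes. With the filter set to detection p-values under 0.01 on every array, only HOXB4, TBX21 and TBXT were tested. With median centring TBX21 (-0.13) and HOXB4 (-0.18) changed sign. With single arrays left out, the differences near 0 changed sign: HOXB4 ran from -0.085 to 0.095, HOXB3 from -0.22 to 0.073 and TBX21 from -0.055 to 0.23.

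Over all genes, 1400 were called higher and 1269 lower (52.5% higher), 815 and 1104 with median centring (42.5% higher), and 830 lower with that strict filter. With single arrays left out, 675 to 2103 were higher and 622 to 1889 lower. Of the related lists, calls with single arrays left out ranged from 0 to 1 for other HOX genes (0), 1 to 3 for TALE genes (2), 6 to 11 for other homeobox genes (10), 0 to 1 for T-box genes (1), 0 to 3 for LIM cofactors (3) and 2 to 11 for Polycomb and MLL genes (8), with the count on all arrays in brackets. TALE calls fell to 1 with median centring, with no filter and with the strict detection filter. The strict filter, which removes dim genes, gave 4 calls for other homeobox genes, 0 for T-box genes and 8 for genes linked to T-bet and EOMES. No background correction gave 1 call for LIM cofactors, median centring 1 for Polycomb and MLL genes, and trend and robust variance 1 for other HOX genes. Apart from filters, the cause of these moves was not tested.

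Same-numbered arrays had deviations from their group means that correlated at -0.20, -0.14 and 0.21, so the numbers were not taken to pair them. With the replicate block 1107 genes were higher and 961 lower, and Polycomb and MLL genes gave 2 calls. Dim signal limits HOXB3, HOXB4, HOXB7 and TBX21.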
